A study of Mus musculus with 6 samples.

Results

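The GATA transcription factors, both FOG cofactors and Sox17 were followed in the mouse uterus during the first hours of a progesterone response. The members were given as a list (Gata1 to Gata6, Zfpm1, Zfpm2 and Sox17). A probe set, the group of short probes that reads 1 transcript on the array, counted for a member only if its single gene symbol equalled the member's. All 9 genes were found, with 17 probe sets, among 18193 genes measured. Where a gene had several, the brightest on average over the 6 arrays stands for the gene, and the rest are given for agreement.

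Uterine RNA came from female mice of mixed background with the genotype GATA2 f/f, that is, with a floxed Gata2 allele and no recombinase named, so both groups carry the allele. The mice were ovariectomized at 6 weeks and, aged 8 weeks, injected with sesame oil (3 samples) or with 1 mg of progesterone in 100 µl (3 samples), and the uterus was taken 6 h later. The series text speaks of RNA pools from 3 mice without saying that each array had a pool of its own. The p-values therefore rest on the spread among these arrays alone. How much of that spread is technical and how much lies between mice is not known. Nothing here compares mice with and without Gata2.

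GATA factors are zinc finger proteins that bind DNA at the letters GATA. Gata1, Gata2 and Gata3 are best known from blood cells, and Gata4, Gata5 and Gata6 from heart, gut and gonad. The FOG proteins, encoded by Zfpm1 and Zfpm2, do not bind these sites themselves but attach to a zinc finger of the GATA factor and change what it does to its targets. Sox17 is a factor of the SOX family, in the same subgroup as Sox7 and Sox18, with known roles in endoderm, vessels and the lining epithelium of the uterus. Gata2 is known in the mouse uterus as a factor needed for a full response to progesterone.

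Levels are log2 values, so a difference of 1 is a doubling. The TrpnX controls, probe sets for a bacterial gene, lay between 2.87 and 3.34 and stand for background. Levels of different probe sets cannot be compared with each other, because probes differ in brightness. In limma with Benjamini-Hochberg adjustment over all 18193 genes, 2137 genes (11.7%) had an adjusted p under 0.05, 5.92% higher after progesterone and 5.83% lower. The 3 progesterone arrays lay entirely to one side of the 3 oil arrays in 30.4% of genes, above them in 14.5%. Array medians lay between 5.51 and 5.53, and the number of arrays limits the precision. The neutrophil markers S100a8 and S100a9 split the arrays across the groups: on oil replicate 3 and progesterone replicates 2 and 3 both were between 11.54 and 12.48, and on the other arrays between 4.17 and 5.01.

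Of the 9 members, 1 was higher at the threshold, Gata2, and 0 were lower, beside 11.7% of all genes past it (5.92% higher, 5.83% lower). At an unadjusted p under 0.05, 3 members were higher (Gata2, Zfpm1 and Sox17) and 0 lower, beside 26% of all genes in either direction. The same 3 of 9 had every progesterone array above every oil array, beside 14.5% of all genes (30.4% in either direction). The other 6 members overlapped between the groups. With the replicate number as a block, Gata2 and Sox17 passed, 2 of 9 beside 16.1% of all genes.

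**Figure D1:**
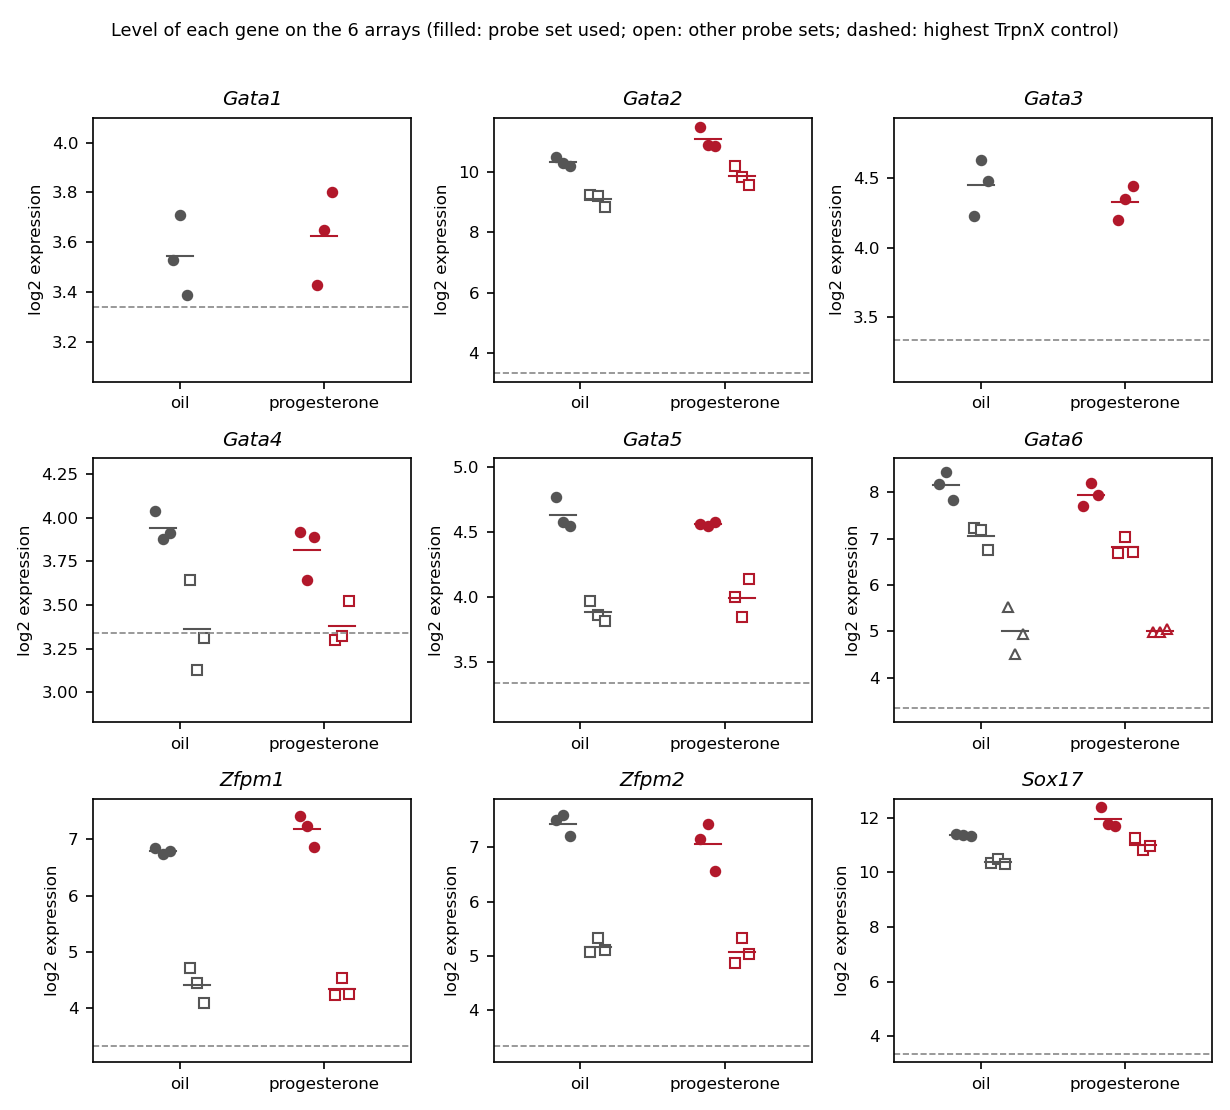
Log2 expression of each of the 9 genes after oil (grey) and progesterone (red), 1 point per array, with the group mean as a line. Each panel has its own vertical scale. Filled points are the probe set used, open points the others, and the dashed line is the highest TrpnX control value, 3.34. The groups lie apart in both probe sets of Gata2 and Sox17 and in the filled points of Zfpm1.

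Gata2 was higher after progesterone. On oil replicates 1, 2 and 3 its level was 10.50, 10.32 and 10.20, and on progesterone replicates 1, 2 and 3 it was 11.51, 10.91 and 10.88. The groups did not overlap, and progesterone replicate 1 stood above the other progesterone arrays. The difference was 0.76 ± 0.184 (log2, SE, 95% interval 0.33 to 1.19), a 1.69-fold rise (limma adjusted p = 0.0411, n = 3 per group). With the replicate block the adjusted p was 0.0105. A larger rise than that of Gata2 was seen in 2.86% of genes.

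The second probe set of Gata2 gave the same picture. Its level was 9.25, 9.22 and 8.86 on the oil arrays and 10.22, 9.83 and 9.58 on the progesterone arrays, again highest on progesterone replicate 1. Its difference was 0.77 ± 0.183 (log2, SE, limma adjusted p = 0.0422 over all 34945 probe sets with 1 gene symbol), beside 8.99% of these probe sets past the threshold. Both probe sets read transcripts from the same samples, so they are not independent replicates.

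The call of Gata2 held in 1 of 6 fits without 1 array. Over all genes, 657 to 1755 passed in these fits, beside 2137 with all arrays. Leaving out progesterone replicate 1 lowered the change to 0.56 but kept the call (adjusted p = 0.0418). Each other omission ended it. The change was 0.84 without oil replicate 1 (adjusted p = 0.0839), 0.75 without oil replicate 2 (0.132) and 0.69 without oil replicate 3 (0.106). It was 0.86 without progesterone replicate 2 (0.0727) and 0.87 without progesterone replicate 3 (0.0525). The difference stayed positive in these fits.

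RefSeq (GRCm38.p6) lists 2 transcription starts for Gata2 in the promoter table used here. The 250 bases upstream of each are shown because Gata2 is the member that passed. Capitals mark the letters CCAAT on either strand.
Gata2, upstream start, chr6:88193641-88193890, plus strand: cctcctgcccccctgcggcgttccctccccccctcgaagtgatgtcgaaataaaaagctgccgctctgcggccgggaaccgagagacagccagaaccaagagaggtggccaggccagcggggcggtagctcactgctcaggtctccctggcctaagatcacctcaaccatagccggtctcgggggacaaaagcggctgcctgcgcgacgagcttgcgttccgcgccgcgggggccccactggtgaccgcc
Gata2, downstream start, chr6:88198414-88198663, plus strand: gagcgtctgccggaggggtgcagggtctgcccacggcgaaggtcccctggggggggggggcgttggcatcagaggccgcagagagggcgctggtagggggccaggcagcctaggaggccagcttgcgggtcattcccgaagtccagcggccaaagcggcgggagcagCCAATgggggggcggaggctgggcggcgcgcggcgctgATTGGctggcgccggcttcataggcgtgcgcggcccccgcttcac

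The downstream window held CCAAT at 83 to 79 bases before the start and its reverse, ATTGG, at 45 to 41. The upstream window held none, and 33.8% of 32851 windows of this length held it. The other 3 motifs were searched on both strands. A GATA site was taken as AGATAA or as TGATAA, with the last letter A or G, and was held by 26.5% of windows. The steroid receptor letters AGAACA were held by 16.1% and the SOX letters AACAAT by 9.42%. None of these 3 was found in either window of Gata2 or in those of Gata1, Gata3, Gata5 and Zfpm1, the 5 members whose windows were read. The search of the members skipped a chromosome. No window of Gata4, Gata6, Zfpm2 or Sox17 was read, so nothing is said of their motifs. The windows were rich in G and C, 67.2% and 74.0% for the upstream and downstream start of Gata2.

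Gata1, which drives red cell, platelet, mast cell and eosinophil formation, was close to background. It lay between 3.39 and 3.71 with oil and between 3.43 and 3.80 with progesterone, with overlapping groups. The difference was 0.08 ± 0.132 (log2, SE, 95% interval -0.23 to 0.39, limma adjusted p = 0.773).

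Gata3, a factor of T cells, innate lymphoid cells and several epithelia, was at 4.23, 4.63 and 4.48 with oil and 4.20, 4.35 and 4.44 with progesterone. The values overlapped, and the 95% interval of the difference ran from -0.42 to 0.19 (log2, limma adjusted p = 0.65).

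Gata4 and Gata5, known from heart, gonad and gut, also stood little above the control level. Gata4 lay between 3.64 and 4.04 over the 6 arrays, and its second probe set was above 3.34 on 2 of 6 arrays. Gata5 lay between 4.55 and 4.77, and its second probe set between 3.82 and 4.14. Their differences were -0.13 (95% interval -0.38 to 0.13) and -0.07 (-0.29 to 0.15) on the log2 scale. Neither passed (limma adjusted p = 0.545 and 0.724).

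Gata6, which acts in smooth muscle, heart and endoderm, was clearly above background. Its level was 8.19, 8.44 and 7.84 with oil and 7.71, 8.21 and 7.94 with progesterone. The groups overlapped and the 95% interval of the difference was -0.64 to 0.24 (log2, limma adjusted p = 0.573). Its second probe set gave -0.25 ± 0.16 (adjusted p = 0.426), and the third gave 0.01 ± 0.23, with oil replicate 1 at 5.53 and the other oil arrays at 4.51 and 4.95. Among the GATA genes above 7 on all arrays, Gata2 and Gata6, only Gata2 passed, and the difference between their changes was not tested.

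**Figure D2:**
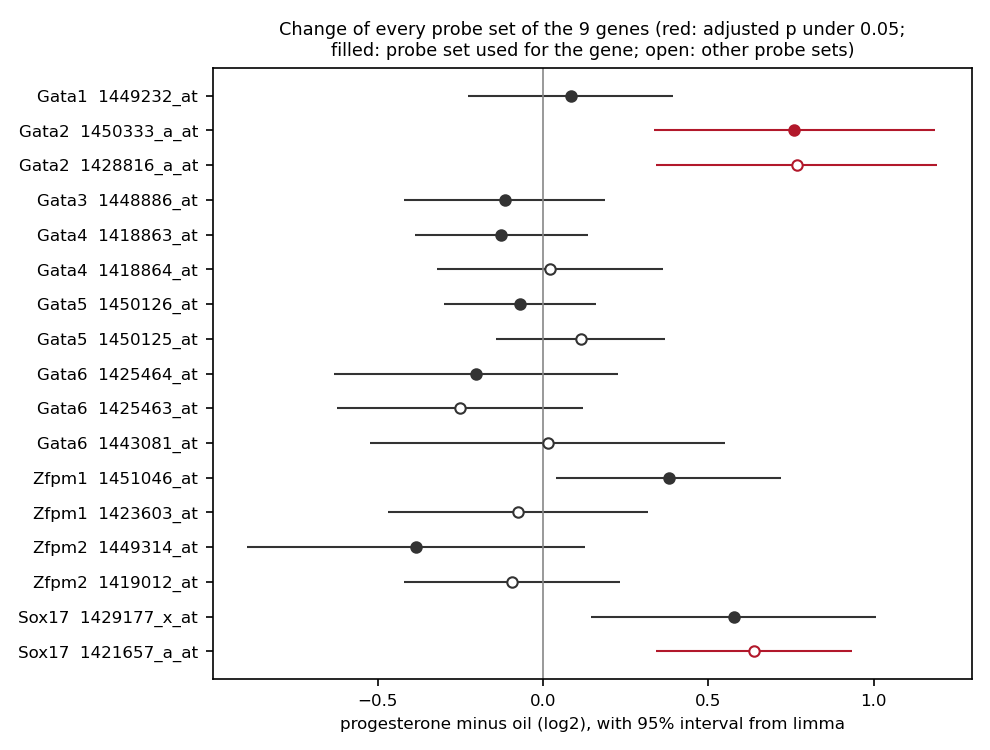
Difference between progesterone and oil (log2) for each of the 17 probe sets, with its 95% interval from limma fitted over all probe sets. Red marks an adjusted p under 0.05, filled points the probe set used. The 2 probe sets of Gata2 and the second of Sox17 are red, and those of Gata1, Gata3, Gata4, Gata5 and Gata6 all have intervals that include 0.

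Zfpm1, which encodes FOG1, the partner of Gata1 and Gata2 in blood cells, was at 6.85, 6.74 and 6.79 with oil and 7.42, 7.23 and 6.87 with progesterone. The groups lay apart, but progesterone replicate 3 exceeded the highest oil array only narrowly. The difference was 0.38 ± 0.146 (log2, SE, 95% interval 0.04 to 0.72) and did not pass (limma adjusted p = 0.151, and 0.0908 with the replicate block). Without progesterone replicate 3 it was 0.53 and passed (adjusted p = 0.0396). The second probe set disagreed: it lay between 4.10 and 4.71 with oil and between 4.24 and 4.54 with progesterone, with a difference of -0.08 ± 0.169. With both probe sets averaged, the change of Zfpm1 was 0.15.

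Zfpm2, which encodes FOG2, the partner of Gata4 and Gata6 in heart and gonad, went the other way in sign without passing. Its level was 7.50, 7.6 and 7.22 with oil and 7.16, 7.44 and 6.57 with progesterone, lowest on progesterone replicate 3. The groups overlapped and the difference was -0.38 ± 0.224 (log2, SE, 95% interval -0.91 to 0.14, limma adjusted p = 0.349, and 0.0823 with the replicate block). It was -0.14 without progesterone replicate 3, and -0.09 ± 0.14 in the second probe set.

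Sox17 was higher on every progesterone array, and its call depended on the probe set. On the probe set used, oil replicates 1, 2 and 3 were at 11.41, 11.38 and 11.33, and progesterone replicates 1, 2 and 3 at 12.40, 11.77 and 11.68. The SD was 0.0404 over the oil arrays and 0.392 over the progesterone arrays, with progesterone replicate 1 far above the rest. The difference of 0.58 ± 0.188 (log2, SE, 95% interval 0.14 to 1.02) was 1.49-fold and did not pass (limma adjusted p = 0.0982). It passed with the replicate block (adjusted p = 0.0466). Without progesterone replicate 1 the change on this probe set was 0.35 (adjusted p = 0.076).

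The second probe set of Sox17 passed. It read 10.36, 10.48 and 10.30 with oil and 11.24, 10.83 and 10.98 with progesterone, again apart and again highest on progesterone replicate 1. The difference was 0.64 ± 0.128 (log2, SE, 1.55-fold, limma adjusted p = 0.0238 over all probe sets). This call ended when oil replicate 1 (adjusted p = 0.0844), 2 (0.07) or 3 (0.0667) was left out, and when progesterone replicate 3 was (0.056). With the mean of both probe sets as the level of Sox17, the change was 0.61 (adjusted p = 0.0425). The probe set used has a name ending in x_at, the maker's mark for probes that may also match other transcripts.

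Progesterone replicate 1 held the highest value of Gata2, Sox17 and Zfpm1 in the probe sets used. It lacked the high neutrophil signal of the other progesterone arrays: the summed level of 7 neutrophil markers (linear scale) was 177 there, and 7910 and 10600 on progesterone replicates 2 and 3. On oil replicates 1, 2 and 3 the sum was 199, 247 and 7120. S100a8 and S100a9 were by far the brightest of the 7 on the arrays with a high sum. Ngp was at 9.05 on progesterone replicate 2 and at 4.09 on progesterone replicate 3. The part of the neutrophil signal in the results was not tested. In whole tissue, more cells of a type and more RNA per cell cannot be told apart.

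Endothelium, a known site of Gata2 and Sox17, had 0 of 10 markers past the threshold in limma (3 lower and 0 higher at an unadjusted p under 0.05), and with the replicate block 2 were lower, Pecam1 (-0.46, adjusted p = 0.0293) and Tek (-0.43, 0.0352). Its median log2 change was -0.26, and its summed level was 3350 to 4350 with oil and 3320 to 3540 with progesterone. Epithelium, where Sox17 is also known, had 1 of 10 lower, Wnt7a, a Wnt ligand of the uterine lining (4.28-fold, limma adjusted p = 0.00407), and with the block Elf3 was lower too (-0.72, 0.0305). Its median log2 change was -0.335, and Cldn4 (0.41), Calb1 (0.29) and Krt7 (0.06) had positive changes that did not pass. Its sum was 13500 to 15400 with oil and 8530 to 16000 with progesterone, lowest on progesterone replicate 2. The fall of Wnt7a was not seen in its other, dimmer probe sets, which gave 0.16 and -0.003 (limma adjusted p = 0.581 and 0.991 over all probe sets). Gland markers had 2 of 7 higher and 0 lower, Ttr (6.09-fold, limma adjusted p = 0.0334) and Spdef (1.9-fold, 0.00529). Spdef kept its call in all 6 fits without 1 array, Ttr only without oil replicate 3. The other gland markers did not pass: Aldh1a1 (0.67), Foxa2 (0.16) and Prss28 (0.09) had positive changes, Prss29 (-0.17) and Cxcl15 (-0.13) negative ones. The median log2 change of the gland list was 0.16, and its sum was 1420 to 3840 with oil and 2810 to 3940 with progesterone. Ttr is also a liver marker, and of 5 measured liver markers it alone passed. Stroma had 2 of 10 higher and 2 lower. The largest of these changes were Mmp11 (-1.29, limma adjusted p = 0.00906), Hoxa11 (1.13, 0.00185) and Lum (-1.01, 0.0257). Mmp11 and Hoxa11 kept their calls in all 6 fits without 1 array, Lum in 2. The stromal sum was 41500 to 47200 with oil against 34400 to 47800 with progesterone, lowest on progesterone replicate 1. With the block 3 were higher and 3 lower, adding Col1a1 (0.66, adjusted p = 0.0338) and Vim (-0.53, 0.0355). Over all genes, 11.7% were past the threshold, 16.1% with the block and 26% at an unadjusted p under 0.05.

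Mast cells depend on Gata2, and of their 10 markers only Hdc passed, beside 11.7% of all genes. Their summed level was 770 to 1470 with oil and 2280 to 3500 with progesterone, and without Hdc it was 238 to 454 with oil and 264 to 433 with progesterone. Of the other 9 markers, 6 were above the highest control value on all 6 arrays, among them Kit (6.83 to 8.05) and Cpa3 (4.35 to 6.39). Ms4a2 was at 3.31 on oil replicate 1 and between 3.44 and 3.60 on the rest, Mrgprb1 lay between 2.88 and 3.43, and Fcer1a was below 3.34 on all arrays. The median log2 change of the 10 markers was -0.01, beside -0.02 over all 18193 genes.

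Of 16 marker lists, 9 had no gene past the threshold in limma, and 4 of these 9 had at least 1 with the replicate block, which calls 16.1% of all genes. Adipocyte markers had 4 of 5 lower with the block, Adipoq (-1.94, adjusted p = 0.113 without and 0.0135 with the block), Fabp4 (-1.74, 0.114 and 0.00765), Retn (-0.64, 0.131 and 0.0116) and Cidec (-0.58, 0.118 and 0.0338). The adipocyte sum was 593 to 1190 with oil and 178 to 635 with progesterone, lowest on progesterone replicate 3, the array on which Zfpm2 was lowest. The block also added Csf3r among neutrophil markers (0.51, adjusted p = 0.0327) and Pdpn among lymphatic ones (-0.51, 0.0342), and in endothelium the genes named above. The other lymphatic markers measured, Lyve1 (0.41), Flt4 (-0.23) and Prox1 (0.003, near background), did not pass in either fit. The part of cell composition in the values of Gata2, Sox17 and Zfpm2 was not tested.

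Proteins that work with GATA factors and FOG were read next. Of 35 measured partner genes 4 were higher and 0 lower in limma, with a median log2 change of 0.08, beside 5.92% and 5.83% of all genes. At an unadjusted p under 0.05, 7 were higher and 4 lower, beside 26% of all genes in either direction. Gatad2a, a subunit of the NuRD complex that FOG proteins recruit, was at 8.92, 8.90 and 9.03 with oil and 9.50, 9.61 and 9.58 with progesterone. It rose 1.53-fold (0.61 ± 0.0878 log2, limma adjusted p = 0.00784) and passed in all 6 fits without 1 array. Mbd3, another NuRD subunit, rose 1.35-fold (adjusted p = 0.0256), a call that ended in each of the 6 fits without 1 array (adjusted p up to 0.0945, without oil replicate 1).

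Hand2 and Srf, factors that act with Gata4 in heart and with smooth muscle genes, were the other higher partners. Hand2, which in the uterus marks the stroma, was at 9.86, 9.82 and 9.78 with oil and 10.64, 10.27 and 10.46 with progesterone. It rose 1.55-fold (limma adjusted p = 0.0157), and the call ended without oil replicate 1 (adjusted p = 0.0537) or oil replicate 2 (0.0682). Srf rose 1.57-fold (adjusted p = 0.0267) and kept its call only without progesterone replicate 3, with an adjusted p of 0.104 without oil replicate 2. Neither Hand2 nor Srf passed in another of its probe sets. With the replicate block, which calls 16.1% of all genes, 3 partners were also lower: Runx1 (adjusted p = 0.00991), a blood factor, Ldb1 (0.0209), which bridges GATA complexes, and Nfatc4 (0.0343).

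Of the 9 measured genes with a GATA-type zinc finger outside the family, 1 was higher, Gatad2a, and 1 lower, beside 11.7% of all genes past the threshold. The lower one, Rere, a corepressor, went from 11.34, 11.32 and 11.36 to 10.76, 10.75 and 10.76, and fell by 0.58 on the log2 scale (SE 0.0792, 1.5-fold, limma adjusted p = 0.00698). Its call held in all 6 fits without 1 array, and a second of its 3 probe sets passed in the same direction. Trps1, a repressor that binds GATA sites, had means of 9.93 after oil and 9.78 after progesterone (adjusted p = 0.528).

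The SOX family outside Sox17 had 2 of 18 members lower and 0 higher in limma, beside 5.83% and 5.92% of all genes. The counts were the same at an unadjusted p under 0.05, beside 26% of all genes in either direction. The median log2 change was -0.04. Sox2 and Sox30 were not above the highest control value on all arrays, and Sox1, Sox3, Sox8, Sox11 and Sox15 lay little above it. Sox7, a near relative of Sox17, was at 7.42, 7.58 and 7.96 with oil and 6.32, 6.50 and 6.90 with progesterone. The groups did not overlap, and it fell by 1.08 on the log2 scale (SE 0.192, 2.11-fold, limma adjusted p = 0.0156), while its second, dimmer probe set gave -0.14 (adjusted p = 0.706). The call of Sox7 ended without oil replicate 2 (adjusted p = 0.0619) or progesterone replicate 2 (0.0602). Sox18, the remaining member of that subgroup and a factor of vessels, averaged 8.75 after oil and 8.53 after progesterone (adjusted p = 0.351). Sox4 fell by 0.36 on the log2 scale (adjusted p = 0.0441), and its call ended in each of the 6 fits without 1 array (up to 0.131, without oil replicate 2). In limma over all probe sets, the probe set used for Sox4 did not pass (adjusted p = 0.0572). A dimmer one passed in the same direction (-0.49, adjusted p = 0.0242), and its remaining probe sets did not pass. Whether Sox17 and Sox7 differ in their change was not tested.

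Of 10 measured partners of Sox17, 0 passed in limma, beside 11.7% of all genes. Foxa1 was not above the highest control value on all arrays. At an unadjusted p under 0.05, 1 was higher and 1 lower, beside 26% of all genes in either direction. These were Lef1 (0.41, adjusted p = 0.151) and Tcf7l2 (-0.38, adjusted p = 0.0661), which carry the Wnt signal with Ctnnb1, beta-catenin (-0.11, adjusted p = 0.453). Foxa2, a factor of uterine glands, averaged 7.48 after oil and 7.64 after progesterone (adjusted p = 0.685).

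**Figure D3:**
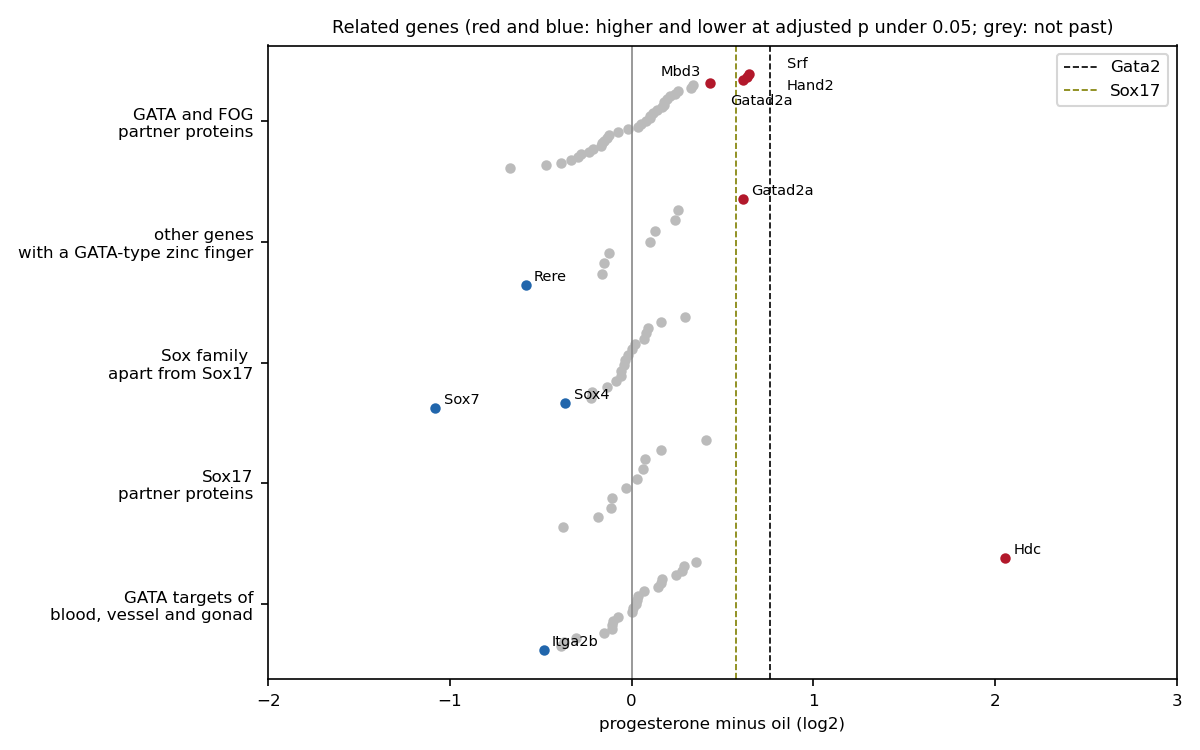
Difference between progesterone and oil (log2) for the measured genes of 5 lists related to the GATA factors and Sox17, 1 point per gene, sorted by value within each list. Red and blue points passed the threshold as higher and lower and are named, and the dashed lines mark the changes of Gata2 (0.76) and Sox17 (0.58). Most points are grey and lie near 0.

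Genes known as GATA targets in blood, vessels and gonad showed 1 of 23 higher and 1 lower, beside 11.7% of all genes past the threshold. Il4, Il5 and Nppb were not above the highest control value on all arrays. Il13, Nppa, Prox1, Cyp11a1 and Klf1 lay little above it, so the lack of a call says little for these genes. Hdc, which makes histamine, was at 9.30, 8.52 and 9.99 with oil and 11.66, 10.87 and 11.45 with progesterone, 4.16-fold higher (limma adjusted p = 0.0164). Its second probe set passed as well. The call ended without oil replicate 1 (adjusted p = 0.0588) or progesterone replicate 3 (0.0503). Itga2b, the platelet integrin, was 1.4-fold lower (adjusted p = 0.0248), held in 2 of 6 fits without 1 array and reached 0.0934 without oil replicate 2. Kit, Kdr, Vwf, Edn1 and Cd34 did not pass (adjusted p between 0.417 and 0.807).

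A list of the uterine progesterone receptor axis, written with the response of these arrays known, had 13 higher and 4 lower among 28 measured, beside 5.92% and 5.83% of all genes, and a median log2 change of 0.27. With the replicate block 5 were lower, the added one being Muc1, a mucin of the lining (-0.92, adjusted p = 0.547 without and 0.0272 with the block). Pgr, the receptor itself, was lower where Gata2 was higher: its means were 11.48 after oil and 10.42 after progesterone (limma adjusted p = 0.00255). The largest changes of the list were rises of Lrp2 (22.6-fold), an endocytic receptor, Il13ra2 (13.0-fold), a decoy receptor, and Cyp26a1 (12.8-fold), which degrades retinoic acid. All 3 passed in each of the 6 fits without 1 array.

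Genes whose pattern over the 6 arrays was most like that of a member were found by the root mean square difference of values centred on each gene's mean, over 4344 genes that were above the control level and deviated by at least 0.25. Nearest to Gata2 were Bcl2l1 (0.0605), an inhibitor of cell death, Wfdc6a (0.0677) and Gcnt2 (0.0712), a glycan-branching enzyme. Bcl2l1 was 8.72, 8.62 and 8.55 with oil and 9.83, 9.26 and 9.30 with progesterone, like Gata2 highest on progesterone replicate 1. Nearest to Sox17 were Lratd1 (0.0369), Parn (0.0411), a nuclease that shortens poly(A) tails, and Cklf (0.0592).

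Zfpm1 was most like Fam169a (0.06), D430019H16Rik (0.061) and Gtf2a1 (0.0734), a general transcription factor, and Zfpm2 most like Serpinb8 (0.0655), Chst1 (0.0792) and Tro (0.0819). The other 5 members deviated by less than 0.25 and were not matched. Of these 12 genes, Bcl2l1, Gcnt2 and Gtf2a1 passed the threshold (limma adjusted p = 0.0206, 0.0285 and 0.0496), and without oil replicate 2 none of the 3 did (0.0827, 0.107 and 0.165). With the replicate block Wfdc6a (limma adjusted p = 0.0235), Lratd1 (0.0358) and Cklf (0.0283) passed as well. These are descriptions of 6 arrays, chosen as the nearest of many genes.

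**Figure D4:**
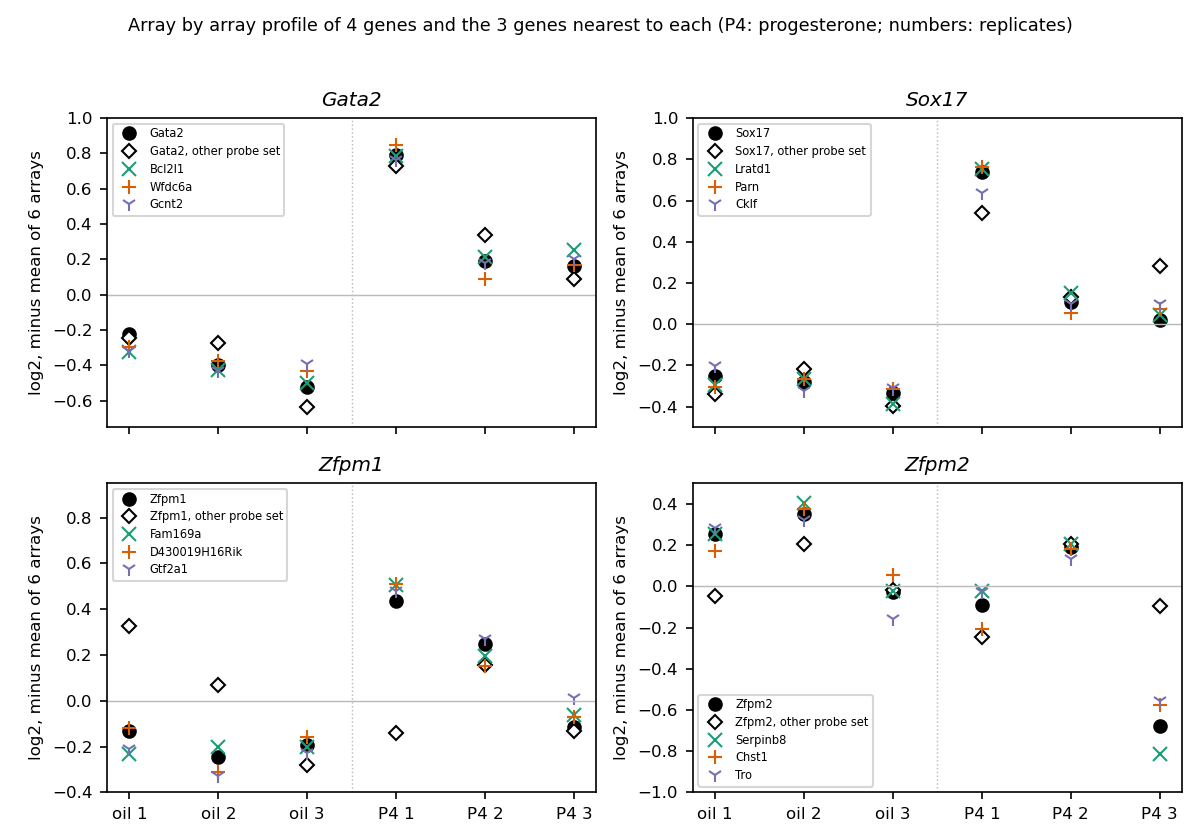
Level on each of the 6 arrays minus the mean of the 6 (log2), for Gata2, Sox17, Zfpm1 and Zfpm2 (filled circles), their second probe sets (open diamonds) and the 3 nearest genes (coloured signs). P4 stands for progesterone and numbers for replicates. Gata2, Sox17 and Zfpm1 are highest on progesterone replicate 1, and Zfpm2 is lowest on progesterone replicate 3.

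**Figure D5:**
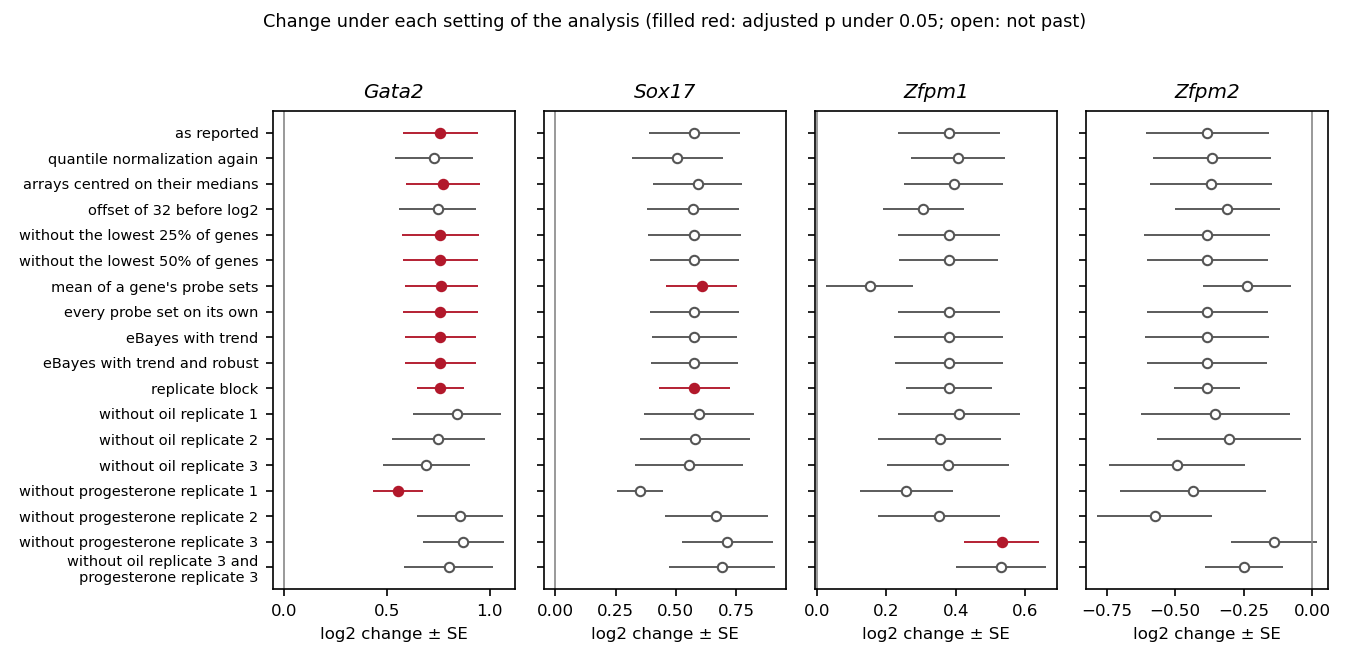
Difference between progesterone and oil (log2) ± SE for Gata2, Sox17, Zfpm1 and Zfpm2 as reported and under each other setting, 1 row per setting. Filled red points have an adjusted p under 0.05. Without progesterone replicate 1 the change of Gata2 is 0.56 and that of Sox17 0.35, and no point changes sign.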

How the data were processed

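Whole uterus RNA was measured on 6 one-colour Affymetrix arrays. The authors deposited 45101 probe sets on a log2 scale. The submitters' processing notes name Partek 6.6 and RMA, with no settings. Scanner files and detection calls were not used here. Probe sets were named from the platform annotation: 34945 had 1 gene symbol and 932 several.

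Groups came from the sample labels. Genes, 1 probe set each, were tested with limma 3.58.1 (R 4.3.3), two-sided. P-values were adjusted by Benjamini-Hochberg over the 18193 genes, and 0.05 was the threshold. It was checked on simulated data. Intervals are the fit's own at 95%. Of each gene list, and of the marker lists described here, up to 3 genes past the threshold were named by size of change. S100a8, S100a9, Ngp, Cldn4, Calb1, Krt7, Kit, Cpa3, Ms4a2, Mrgprb1, Fcer1a, Mbd3, Pgr, Sox18, Trps1, Ctnnb1, Foxa2, Lef1, Tcf7l2, the genes that passed only with the block and the targets listed with no call were named after their values were seen. So were Aldh1a1, Prss28, Prss29, Cxcl15, Lyve1, Flt4 and Prox1, and the SOX genes and Foxa1 named as near background. The members and lists were chosen with earlier results of these data known.

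Replicate numbers are shared by the groups, with no stated meaning. Deviations from the group means correlated across genes at 0.523, 0.141 and 0.636 for same-numbered arrays, all above 0.1, so blocked values are given where they change a call. Oil replicate 2 correlated better with progesterone replicate 1 (0.322). Alternatives were other scalings, filters, probe set rules and variance priors, the replicate block, each array left out and a stricter threshold.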

Additional observations from a re-analysis of the deposited data

How the results depend on the processing

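Over all genes, 2137 passed as reported, 571 at an adjusted p under 0.01, 657 to 1755 without 1 array (fewest without oil replicate 2) and 1027 without oil replicate 3 and progesterone replicate 3 together, an alternative added after the data were seen. Among the members, the count was 1 as reported, 0 to 1 without 1 array, and 0 after quantile normalization again, with an offset of 32, at an adjusted p under 0.01 and without those 2 arrays. It was 2 with probe sets averaged per gene and 2 with the replicate block. The change of Gata2 was 0.73 after quantile normalization (limma adjusted p = 0.0514) and 0.75 with the offset (0.0549). It was 0.76 at the stricter threshold, 0.56 to 0.87 without 1 array and 0.80 without those 2 arrays (0.101). Sox17 passed with the mean of its probe sets (0.61) and with the replicate block (0.58, adjusted p = 0.0466), and ranged from 0.35 to 0.71 without 1 array. Zfpm1 ranged from 0.26 to 0.53 without 1 array. Gata2, Sox17, Zfpm1, Zfpm2, Gata6, Gata3 and Gata4 kept their sign in every setting run for them. Gata1 and Gata5, near background, changed sign in some, without passing in any. Centring moved the median of all genes by less than 0.1. With the replicate block no other member's call changed. Small changes cannot be resolved with 3 arrays a group, least of all near background.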
